A study of Mus musculus and Rattus norvegicus with 96 samples.

Results

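Rat lung that had stood in formalin for 1 year before paraffin embedding was compared with frozen rat lung. The comparison used 11 of the 96 libraries of the series: 5 of the 6 frozen lung libraries (FR, replicates 49 to 53) and all 6 lung libraries labelled as fixed directly in 10% neutral buffered formalin for 1 year (one-year FFPE, replicates 61 to 66). Members were taken from the preservation label of each library, and FR replicate 54 was left out because its column holds 12 counts. Another lung group of 6 libraries was frozen first and then fixed for 18 to 24 h in 10% neutral buffered formalin (FR > FFPE, replicates 55 to 60), and it was kept in the fit for a direct contrast. All 18 lung libraries came from male WKY (Wistar Kyoto) rats given vehicle control. No age is given, and the labels do not tie any lung library to an animal, so p-values measure only the spread between these libraries, which may be technical. The FR libraries carry titles for extracted RNA, whereas FFPE tissue entered the assay as a deparaffinized lysate, so that preservation and type of input cannot be told apart.

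Formalin links amino groups of proteins and nucleic acids through methylene bridges, and long storage in it adds further crosslinks and breaks to RNA. TempO-Seq, the assay used here, reads a short stretch of each target: a pair of detector oligos of 25 nt anneal side by side on the RNA, are ligated and are counted after amplification. The lung is built of alveoli lined by flat type I cells and surfactant-making type II cells, a dense capillary bed, conducting airways with club and ciliated cells, resident macrophages and an elastic matrix.

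The rat S1500+ panel is described in the labels as 2603 genes measured with 2636 probes, and the deposited table holds 28760 rows of which 2851 have a count in any of the 18 lung libraries. Most markers that define lung epithelium could therefore not be used to check the tissue. The surfactant protein genes Sftpa1, Sftpb, Sftpc and Sftpd, the club cell gene Scgb1a1, the type I cell genes Ager and Aqp5, the endothelial gene Cdh5 and the macrophage gene Marco are listed at 0 in every library, and Pecam1 has no row. Some lung genes that do carry counts were abundant in both groups. Others, such as the club cell gene Cyp2f4 and the collagen gene Col1a1, were low in FR. Lyz2, the lysozyme of type II cells and macrophages, was the most abundant gene in FR and in one-year FFPE, and Lamp3, a lamellar body protein of type II cells, ranged from 1789.5 to 11896 TMM-scaled CPM over the 11 libraries. TMM-scaled CPM is a read count relative to the sum of its library, after adjusting that sum by the trimmed mean of M values (TMM), the unit of all levels below unless total count is named.

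Depth differed between the groups. The 5 FR libraries held 2013606 to 2505947 counts and the 6 one-year FFPE libraries held 226751 to 1634577, with replicates 63 (226751) and 61 (441565) the shallowest. In spite of fewer counts, one-year FFPE libraries detected more genes. At least 5 counts were found for 1962 to 1997 genes in FR (1981 ± 13.8, SD, n = 5) and for 2062 to 2363 genes in one-year FFPE (2278 ± 113, SD, n = 6), without overlap (exact two-sided permutation test, p = 0.0043, the smallest this design allows, Benjamini-Hochberg adjusted p = 0.0058 over 4 library measures). After every library was thinned to 226751 counts the gap widened to 1411 to 1452 genes in FR against 1795 to 2229 in one-year FFPE. FR > FFPE libraries detected 2258 to 2357 genes before thinning and 1953 to 2079 after it.

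**Figure D1:**
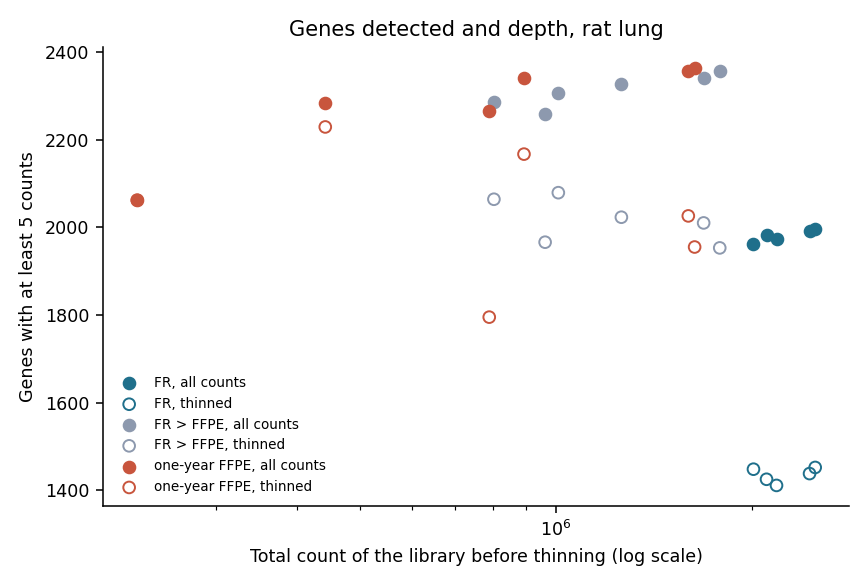
Genes with at least 5 counts (y axis) against the total count of each library (x axis, log scale), with filled points for all counts and open points after thinning to the smallest library. The 5 FR libraries lie lowest, at 1962 to 1997 genes before and 1411 to 1452 after thinning, although their totals are the highest.

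Replicates were also closer to each other in FR, whose libraries were deeper. The median absolute log2 difference of a library from the mean of its group's other libraries was 0.169 ± 0.030 (SD, n = 5) in FR and 0.343 ± 0.105 (SD, n = 6) in one-year FFPE (exact permutation test, p = 0.0043, adjusted p = 0.0058), with replicate 61 farthest at 0.517. These distances depend on each other and on the group labels, so this p-value is only a rough guide. The distances were not recomputed after thinning, and whether the lower depth of one-year FFPE had a part in them was not tested. The 10 most abundant genes took 29.9 to 31.2% of the counts in FR and 25.8 to 31.9% in one-year FFPE, a difference that did not pass the test (exact permutation test, p = 0.052).

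Most panel genes measured differed between one-year FFPE and FR. Of 2322 genes tested, 1238 (DEGs) were differentially expressed, at an FDR-adjusted p-value below 0.05 in edgeR's quasi-likelihood test and a change of at least 2-fold, a share of 53.3%. In one-year FFPE 841 genes (36.2%) were higher and 397 (17.1%) were lower than in FR, with a median change of 0.24 on the log2 scale across the tested genes. The CPM values of the groups did not overlap for 1491 of the 2322 genes (64.2%) and for 1133 of the DEGs. The size of the split depended on the scaling, with more genes higher than lower under both. With total count as library size 1153 genes (49.7%) were higher and 99 (4.26%) lower, so that the share of DEGs that were higher went from 67.9 to 92.1%, and the median of all genes rose by 0.75 to 0.99. All 841 genes that were higher with TMM were also higher with total count, whereas 99 of the 397 lower genes were lower under both. Changes below are on the TMM scale unless total count is named, and list counts stand against 36.2% higher and 17.1% lower over all genes with TMM and 49.7% and 4.26% with total count.

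The sign of a change followed the level of the gene. When the genes were divided into 5 equal bins by their mean log2 CPM over the 3 groups, the lowest bin had a median FR level of 0.961 CPM and a median one-year FFPE level of 22.4 CPM, and 400 of its 465 genes (86%) were higher in one-year FFPE against 16 lower. Genes near 0 in FR could pass the filter on low counts only through the FFPE libraries. The direction in the lowest bin was therefore largely fixed by that filter and is a description. The second bin went from a median of 14.2 to 40.1 CPM, with 298 of 464 genes higher. In the middle bin 103 genes were higher and 43 lower. The highest bin went from a median of 1074 to 607 CPM, with 14 of 465 genes higher and 179 (38.5%) lower. With total count the highest bin had 50 genes higher and 44 lower at a median log2 fold change of -0.01, and the lowest bin kept its excess with 413 higher and 4 lower. FR > FFPE libraries had median levels of 17.3 CPM in the lowest bin and 648 CPM in the highest. Across all genes, those higher in one-year FFPE had a median of 4.14 CPM in FR and 35.97 CPM in one-year FFPE, and those lower had a median of 640 CPM in FR.

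**Figure D2:**
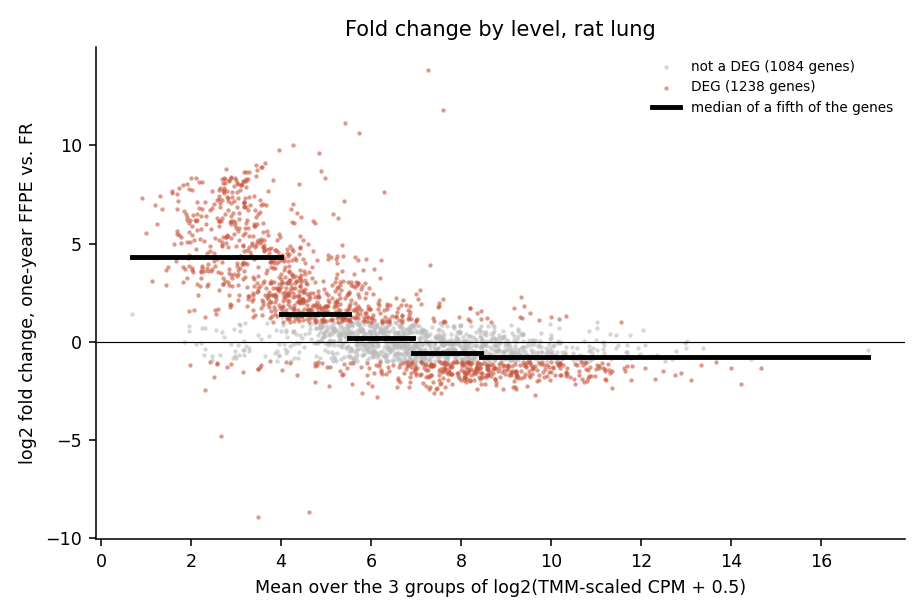
Log2 fold change of one-year FFPE vs. FR (y axis) against mean log2 level over the 3 groups (x axis) for 2322 genes, DEGs in red. Black bars are the medians of 5 equal bins and run from 4.34 in the lowest to -0.77 in the highest.

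Because lists differ in the level of their members, most list counts below stand beside the level of the members in FR. A gene near 0 in FR could pass the filter on low counts only through the FFPE libraries, so that its direction was largely fixed by the filter. List counts made of such genes are a description. So are the changes against FR and the adjusted p-values given below for such genes. Among them are Selp, Sele, Col1a1, Gzmb, Il10, Car9, Xrcc1, Ccnb1, Ube2c and Cyp3a2. Bulk libraries cannot tell fewer cells of a type from less RNA per cell.

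Among the most abundant transcripts Hbb, S100a6, Igfbp7 and Ahnak fell, and Lyz2 did not pass the test. Lyz2 had 194416, 163504, 169022, 155832 and 171601 CPM in the 5 FR libraries and 103305 to 184371 (median 126290) in the 6 one-year FFPE libraries. These ranges overlap, and the log2 difference of -0.40 ± 0.22 (SE) did not pass the test (FDR-adjusted p = 0.11), with a value of 0.34 under total count. Hbb, the beta chain of haemoglobin and a marker of red blood cells, read 48551, 59776, 67568, 65107 and 64583 CPM in FR and 15600 to 31609 (median 25774) in one-year FFPE. Every one-year library lay under every FR library, the log2 change was -1.31 ± 0.26 (adjusted p = 1.0e-04), and under total count it was -0.59, short of a 2-fold change. S100a6, a calcium-binding protein of fibroblasts and epithelium, read 62333, 43585, 56816, 50535 and 50216 CPM in FR and 6998 to 14522 (median 12342) in one-year FFPE. Its change of -2.16 ± 0.23 (adjusted p = 4.7e-08) was -1.43 with total count, so that it was a DEG under both scalings. Igfbp7, a secreted protein of vascular endothelium, went from 18885, 15551, 16958, 17731 and 18802 CPM in FR to 5282 to 11327 (median 7428) in one-year FFPE (log2 change -1.17 ± 0.18, adjusted p = 8.1e-06, total count -0.44). Ahnak, a giant scaffold protein under the plasma membrane, went from 21802, 26151, 23088, 22764 and 20093 CPM to 6097 to 13482 (median 11833). Its change of -1.03 ± 0.20 (adjusted p = 1.1e-04) sat at the fold threshold and fell short of it without FR replicate 50 (-0.98), FR replicate 49 (-0.9997) or one-year replicate 61 (-0.90), and also with DESeq2. Under total count it was -0.30 (adjusted p = 0.13), which did not pass the test. The red blood cell list has 3 genes with counts, of which Hbb alone was a DEG, and its summed level was 50172 to 69492 CPM in FR against 16442 to 33039 in one-year FFPE.

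Alveolar genes on the panel were few. Of 20 type II cell genes listed 6 carried counts, and Lamp3 was the only DEG, in the lower direction. Lamp3 read 11839, 9644, 11671, 9709 and 11896 CPM in FR and 1790 to 3670 (median 2818) in one-year FFPE. The groups were far apart, and the log2 change was -1.95 ± 0.32 (adjusted p = 1.5e-05, total count -1.22). The list median was -0.12 against 0.24 for all genes. Cav1, the caveolin that coats the vesicles of type I and endothelial cells, was the only type I cell gene with counts. It read 7796, 8374, 8314, 9577 and 8083 CPM in FR and 846 to 2402 (median 1624) in one-year FFPE, a log2 change of -2.33 ± 0.28 (adjusted p = 2.1e-07, total count -1.62).

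Few airway genes could be tested. Of 7 tested airway secretory and ciliated cell genes 2 were higher and none lower, with a median of 0.54. Over all genes 36.2% were higher and 17.1% lower. A list of 7 genes is too short to tell a lack of lower genes from that 17.1%. Total count gave 5 higher and none lower, with a median of 1.33. Cyp2f4, a cytochrome P450 of club cells, read 35.6, 10.9, 75.98, 81.7 and 84.03 CPM in FR and 58.7 to 384 (median 145) in one-year FFPE, so that the groups overlapped. The log2 change was 1.60 ± 0.45 (adjusted p = 0.0032), and it was no longer a DEG without the shallow replicates 61 and 63 (0.90, adjusted p = 0.054). Krt18, an intermediate filament of simple epithelium, rose from 28.1, 38.9, 45.2, 33.1 and 32.1 CPM to 85.3 to 211 (median 115) (log2 change 1.87 ± 0.23, adjusted p = 4.5e-07).

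**Figure D3:**
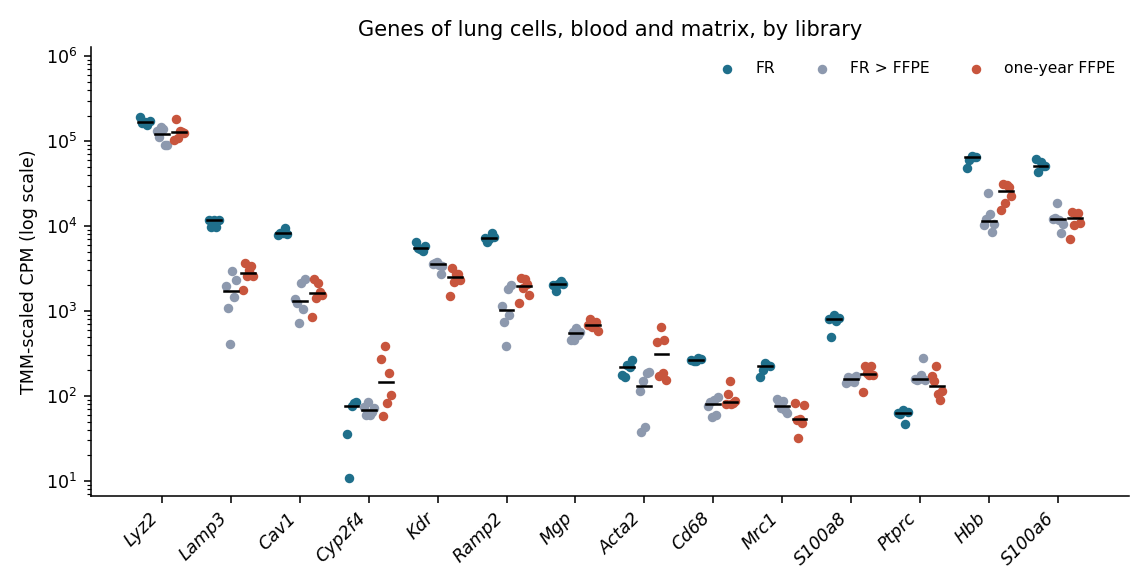
TMM-scaled CPM (y axis, log scale) of 14 genes of lung cells, blood and matrix, 1 point for each library and a black bar for the group median, for FR (5 libraries), FR > FFPE (6) and one-year FFPE (6). Lamp3, Cav1, Ramp2, Hbb and S100a6 lie lower in both FFPE groups than in every FR library, whereas Lyz2 overlaps.

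Endothelial genes split by level. Of 10 tested genes, 4 were higher with a median of 11.8 CPM in FR and 2 were lower with a median of 6476 CPM. Kdr, the receptor for vascular endothelial growth factor, read 6416, 5505, 5420, 5044 and 5876 CPM in FR and 1514 to 3166 (median 2516) in one-year FFPE, a log2 change of -1.22 ± 0.17 (adjusted p = 1.4e-06) that came to -0.49 under total count. Ramp2, the receptor partner through which endothelium senses adrenomedullin, read 7319, 6433, 7014, 8334 and 7396 CPM in FR and 1228 to 2432 (median 1970) in one-year FFPE (log2 change -1.93 ± 0.30, adjusted p = 8.3e-06, total count -1.20). Both genes were lower in every one-year library than in any FR library. The selectins Selp and Sele, adhesion proteins that endothelium shows to leukocytes, moved from near 0. Selp read 2.05, 0, 0.580, 0.704 and 2.05 CPM in FR and 7.11 to 53.1 (median 27.7) in one-year FFPE (log2 change 4.83 ± 0.53, adjusted p = 7.7e-08). Sele went from 2.05, 1.09, 2.32, 2.11 and 3.42 CPM to 15.3 to 70.4 (median 20.9) (log2 change 3.74 ± 0.44, adjusted p = 1.8e-07). Ptprb, a phosphatase of endothelial junctions, rose from 29.4, 71.7, 32.5, 33.1 and 27.3 CPM to 92.4 to 159.7 (median 129) (log2 change 1.73 ± 0.28, adjusted p = 1.4e-05).

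Of 27 tested genes of fibroblasts, smooth muscle and matrix 6 were higher and 6 lower (7 and 2 with total count). The list median was -0.50 with TMM and 0.24 with total count, below that of all genes (0.24 and 0.99) under both. The level of the list was higher too, at a median of 473 CPM in FR against 70.3 CPM for all genes tested. Mgp, an inhibitor of matrix calcification, was lower in every one-year library, at 584 to 812 (median 689) CPM against 2032, 1716, 2097, 2248 and 2067 in FR (log2 change -1.55 ± 0.13, adjusted p = 4.1e-09, total count -0.80). Lamb1, a chain of basement membrane laminin, went from 571, 436, 569.6, 653 and 629 CPM to 79.8 to 153 (median 138) (log2 change -2.14 ± 0.17, adjusted p = 1.5e-09, total count -1.40). Timp1, an inhibitor of matrix metalloproteinases, went from 971, 985, 817, 904 and 916 CPM to 116 to 327 (median 259) (log2 change -1.91 ± 0.28, adjusted p = 3.4e-06, total count -1.17). In the other direction Col1a1, the main chain of type I collagen, read only 2.74, 0.547, 3.48, 2.82 and 1.37 CPM in FR and 15.3 to 90.7 (median 28.1) in one-year FFPE (log2 change 4.08 ± 0.54, adjusted p = 8.9e-07). Acta2, the actin of smooth muscle, overlapped between the groups at 176, 168, 229, 219.7 and 268 CPM in FR and 154 to 654 (median 309) in one-year FFPE (log2 difference 0.67 ± 0.41, adjusted p = 0.14), and it was a DEG under total count (1.47, adjusted p = 0.005).

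Macrophage and neutrophil genes were lower on the TMM scale. Of 17 tested genes none was higher and 8 were lower, against 17.1% of all genes, with a median of -0.82. The tested genes of the list had a median of 214 CPM in FR, against 70.3 CPM for all genes tested. In the level bin with a median of 260 CPM in FR, 30.2% of all genes were lower and 5.6% higher. Under total count 2 were higher and 3 lower, at a median of -0.08 against 0.99 for all genes, and without replicates 61 and 63 the count lower with TMM was 6. Cd68, a lysosomal protein of macrophages, read 263, 259.9, 259.8, 280.2 and 274 CPM in FR and 79.6 to 149 (median 85.8) in one-year FFPE (log2 change -1.49 ± 0.18, adjusted p = 2.3e-07, total count -0.73). Mrc1, the mannose receptor of alveolar macrophages, read 166, 204, 243, 232 and 223 CPM in FR and 31.98 to 82.9 (median 53.1) in one-year FFPE (log2 change -1.86 ± 0.20, adjusted p = 5.0e-08, total count -1.08). S100a8, a calcium-binding protein that fills the neutrophil cytosol, read 807, 494, 899, 771 and 829.4 CPM in FR and 113 to 226 (median 183) in one-year FFPE (log2 change -2.04 ± 0.17, adjusted p = 4.2e-09, total count -1.30). For these 3 genes the highest one-year library was below the lowest FR library. Lgals3, a galectin of macrophages, fell from a low level of 26.7, 21.3, 25.5, 33.1 and 43.04 CPM to 0 to 10.6 (median 4.95) (log2 change -2.48 ± 0.53, adjusted p = 2.8e-04, total count -1.80).

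Lymphocyte and antigen presentation genes showed 6 higher and 1 lower of 16 tested, a share of higher genes near the 36.2% of all genes, with a median of 0.50 and a median FR level of 17.6 CPM among those that were higher. Total count gave 10 higher and none lower, and without replicates 61 and 63 the list had 4 higher and 1 lower. Ptprc, the pan-leukocyte phosphatase CD45, read 63.6, 61.8, 68.4, 47.2 and 64.2 CPM in FR and 88.5 to 224 (median 132) in one-year FFPE (log2 change 1.18 ± 0.23, adjusted p = 8.2e-05). It was under a 2-fold change without replicates 61 and 63 (0.87). Gzmb, the granzyme of cytotoxic cells, read 6.16, 2.19, 2.90, 4.22 and 1.37 CPM in FR and 30.6 to 109 (median 55.6) in one-year FFPE (log2 change 4.2 ± 0.34, adjusted p = 3.0e-09). Ms4a1, the B cell antigen CD20, went from 4.11, 2.19, 2.32, 6.34 and 4.10 CPM to 11.5 to 31.3 (median 17.8) (log2 change 2.34 ± 0.41, adjusted p = 3.4e-05). Psmb9, a subunit of the immunoproteasome, fell from 760.2, 537, 655, 519 and 691 CPM to 167 to 323 (median 206) (log2 change -1.50 ± 0.24, adjusted p = 8.2e-06, total count -0.74). The class I genes RT1-CE4 and RT1-CE7, whose counts are not whole numbers, were not DEGs and overlapped between the groups, with log2 differences of -0.33 and -0.33 that turned to 0.41 and 0.42 under total count. They stood at 10825 to 12329 and 10516 to 13242 CPM in FR and 6715 to 11390 (median 8925) and 7149 to 11418 (median 9183) in one-year FFPE.

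Immediate early genes, which cells switch on within minutes of a stimulus, gave 5 DEGs higher and 1 lower of 20 tested. The share of higher genes was below the 36.2% of all genes, whereas the median of 0.45 was above their 0.24. With total count 10 were higher, a share near the 49.7% of all genes, and none lower. Cyr61, a matrix-associated growth regulator, read 17.1, 19.2, 24.9, 10.6 and 22.5 CPM in FR and 78.2 to 197 (median 118) in one-year FFPE (log2 change 2.73 ± 0.29, adjusted p = 5.3e-08). Egr2, a zinc finger transcription factor, went from 13.00, 7.66, 8.12, 2.82 and 3.42 CPM to 14.2 to 61.01 (median 20.9) (log2 change 2.12 ± 0.45, adjusted p = 2.6e-04). Fosl1, a partner of Jun proteins, overlapped between the groups at 4.11, 3.28, 9.28, 2.82 and 6.15 CPM in FR and 8.93 to 49.7 (median 27.5) in one-year FFPE (log2 change 2.29 ± 0.39, adjusted p = 2.2e-05). The 5 genes that were higher had a median of 18.0 CPM in FR. The lower gene was Zfp36, which encodes an mRNA decay factor (log2 change -1.07 ± 0.28, adjusted p = 0.0019, total count -0.34 with adjusted p = 0.24). The count of lower genes in the list was 0 without one-year replicate 63 and 3 without replicate 65.

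Heat shock and chaperone genes were divided, with 2 higher and 3 lower of 16 tested and a median of -0.12, whereas total count gave 6 higher and 1 lower with a median of 0.62. Hspd1, the mitochondrial chaperonin, read 2546, 1718, 2097, 2389 and 2416 CPM in FR and 449.9 to 727 (median 579.9) in one-year FFPE (log2 change -1.95 ± 0.18, adjusted p = 8.1e-09, total count -1.20). Hspa5, the chaperone of the endoplasmic reticulum, went from 1739, 1773, 2008, 2558 and 1629 CPM to 449 to 763 (median 591) (log2 change -1.70 ± 0.26, adjusted p = 5.0e-06, total count -0.96). Dnajb2, a co-chaperone, went from 6.16, 7.66, 7.54, 4.22 and 5.47 CPM to 12.8 to 43.96 (median 37.99) (log2 change 2.43 ± 0.30, adjusted p = 4.1e-07).

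Antioxidant genes gave 8 higher and 7 lower of 25 tested, with a median of 0.01, whereas total count gave 9 higher and 1 lower with a median of 0.74. Nfe2l2, which encodes the transcription factor Nrf2, read 2384, 1809, 2202, 2189 and 2491 CPM in FR and 411 to 844 (median 661) in one-year FFPE (log2 change -1.79 ± 0.17, adjusted p = 1.3e-08, total count -1.05). Sod2, the mitochondrial superoxide dismutase, went from 647, 679, 673, 713 and 669.5 CPM to 131 to 283 (median 214) (log2 change -1.67 ± 0.19, adjusted p = 1.6e-07, total count -0.95). Cat, the peroxisomal catalase, went from 4193, 3371, 3574, 3512 and 3818 CPM to 789.9 to 2168 (median 1259) (log2 change -1.44 ± 0.22, adjusted p = 4.9e-06, total count -0.72). These 3 genes did not overlap between the groups. Sod3, the extracellular superoxide dismutase of the lung, rose from 45.8, 50.9, 52.8, 49.3 and 46.5 CPM to 185 to 253 (median 235) (log2 change 2.18 ± 0.20, adjusted p = 1.1e-08). Mt1, a metal-binding metallothionein, rose from 4.11, 6.57, 4.06, 4.93 and 6.15 CPM to 24.2 to 74.7 (median 45.8) (log2 change 3.13 ± 0.30, adjusted p = 1.8e-08). Genes of the list that were higher had a median of 20.1 CPM in FR and those lower a median of 721 CPM.

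Genes of formaldehyde metabolism, the enzymes and repair factors that clear formaldehyde and its adducts, gave 3 higher and 1 lower of 8 tested, near the 36.2% and 17.1% of all genes, with a median of 0.08. Total count gave 4 higher and none lower. Mthfd2, a mitochondrial folate enzyme, was one of the 3 (log2 change 1.07 ± 0.39, adjusted p = 0.017) and was no longer a DEG without one-year replicate 61 (0.72, adjusted p = 0.073). Aldh1l1, a folate enzyme that oxidizes formyl groups, held 2 counts over the 5 FR libraries and 15.3 to 73.5 (median 32.1) CPM in one-year FFPE. The ratio of the pooled counts was 136 (95% exact counting interval 37.1 to 1128). Fancd2, a factor of the Fanconi anaemia crosslink repair pathway, read 7.53, 10.4, 6.96, 7.04 and 10.9 CPM in FR and 29.4 to 54.7 (median 39.9) in one-year FFPE (log2 change 2.21 ± 0.24, adjusted p = 8.4e-08).

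Glycolysis and hypoxia genes gave 4 higher and 5 lower of 18 tested, and 7 higher and 1 lower with total count. The list median was -0.24 with TMM and 0.51 with total count, below that of all genes under both. Higher genes of the list had a median of 9.09 CPM in FR and lower ones a median of 1650 CPM. Pfkp, the platelet-type phosphofructokinase, read 1953, 1462, 1630, 1672 and 1765 CPM in FR and 344 to 678 (median 469.9) in one-year FFPE (log2 change -1.82 ± 0.17, adjusted p = 9.3e-09, total count -1.08). Bnip3l, a mitophagy receptor, went from 5328, 4709, 4911, 5226 and 4976 CPM to 1107 to 2611 (median 1782) (log2 change -1.51 ± 0.22, adjusted p = 2.8e-06, total count -0.79). Car9, a carbonic anhydrase of hypoxic cells, went from 4.11, 4.38, 2.32, 0 and 2.73 CPM to 22.97 to 53.1 (median 30.8) (log2 change 3.64 ± 0.39, adjusted p = 7.4e-08). The row of Pkm, the muscle-type pyruvate kinase, held 2 counts in FR and 22.97 to 133 (median 93.5) CPM in one-year FFPE, and the ratio of pooled counts was 304 (95% exact counting interval 83.6 to 2514).

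Cytokine, chemokine and NF-kB genes gave 10 higher and 7 lower of 33 tested, with a median of -0.18, whereas total count gave 14 higher and 1 lower with a median of 0.57. Il6, an acute phase cytokine, read 9.58, 5.47, 2.90, 3.52 and 6.15 CPM in FR and 53.2 to 284 (median 85.8) in one-year FFPE (log2 change 4.38 ± 0.43, adjusted p = 1.8e-08), or 3.67 without replicates 61 and 63. Il10, an anti-inflammatory cytokine, went from 2.05, 0, 1.74, 0 and 0.683 CPM to 16.1 to 56.9 (median 21.3) (log2 change 4.65 ± 0.51, adjusted p = 7.6e-08). Cxcl1, a neutrophil chemoattractant, held 3 counts over the FR libraries and 6.72 to 24.9 (median 17.4) CPM in one-year FFPE, a ratio of pooled counts of 36.6 (95% exact counting interval 12.1 to 181). Icam1, an adhesion molecule of alveolar and endothelial surfaces, fell from 2991, 2930, 3069, 2657 and 2825 CPM to 765 to 1442 (median 1000) (log2 change -1.47 ± 0.15, adjusted p = 4.6e-08, total count -0.73). Il18, a cytokine of the inflammasome, fell from 378, 309, 358, 417 and 374 CPM to 78.2 to 126 (median 113) (log2 change -1.75 ± 0.15, adjusted p = 3.4e-09, total count -1.01). Higher genes of this list had a median of 5.93 CPM in FR and lower ones a median of 367 CPM.

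Among p53 targets and DNA damage genes 10 were higher and 3 lower of 22 tested (12 and 1 with total count), with a median of 0.33. Ddit3, a transcription factor of the integrated stress response, read 777, 681, 789, 892 and 648 CPM in FR and 113 to 289 (median 229.5) in one-year FFPE (log2 change -1.81 ± 0.22, adjusted p = 3.3e-07, total count -1.09). Mdm2, the ubiquitin ligase that restrains p53, went from 935, 671, 955, 877 and 943 CPM to 223 to 498 (median 323) (log2 change -1.35 ± 0.19, adjusted p = 1.7e-06, total count -0.60). Xrcc1, a scaffold of single-strand break repair, went from 3.42, 1.64, 2.90, 0.704 and 4.10 CPM to 20.03 to 46.9 (median 38.3) (log2 change 3.81 ± 0.40, adjusted p = 5.5e-08). Brca1, a factor of recombination repair, went from 7.53, 6.57, 4.06, 6.34 and 4.78 CPM to 15.3 to 64.1 (median 33.4) (log2 change 2.60 ± 0.33, adjusted p = 5.3e-07).

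Cell cycle genes, few of which a resting adult lung uses, gave 20 higher and 3 lower of 31 tested, with a median of 1.81 against 0.24 for all genes (2.61 against 0.99 with total count). The 20 that were higher had a median of 7.73 CPM in FR and 59.4 CPM in one-year FFPE. Ccnb1, the cyclin of mitotic entry, read 2.05, 2.74, 0.580, 1.41 and 3.42 CPM in FR and 30.1 to 139 (median 48.6) in one-year FFPE (log2 change 4.81 ± 0.45, adjusted p = 1.3e-08), or 4.21 without replicates 61 and 63. Ube2c, a ubiquitin-conjugating enzyme of mitotic exit, went from 2.05, 3.28, 0.580, 0.704 and 0.683 CPM to 37.01 to 95.4 (median 50.2) (log2 change 5.2 ± 0.37, adjusted p = 6.0e-10). Kif11, the kinesin of the bipolar spindle, held 1 count in the 5 FR libraries and 10.7 to 64.1 (median 20.4) CPM in one-year FFPE, with a ratio of pooled counts of 199 (95% exact counting interval 35.2 to 7898). The 3 lower genes were Hmmr, Tyms and Pcna. Hmmr was low in FR, at 6.83 to 18.3 CPM, and overlapped with 2.80 to 7.11 CPM in one-year FFPE (log2 change -1.80 ± 0.46, adjusted p = 0.0013, total count -1.08). Pcna, the sliding clamp of DNA polymerase, is a well-expressed replication factor. It read 426, 458, 491, 515 and 463 CPM in FR and 163 to 237 (median 216) in one-year FFPE (log2 change -1.15 ± 0.21, adjusted p = 3.8e-05, total count -0.41, adjusted p = 0.052 there).

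Genes of heart and liver had the largest medians of the 21 lists. Liver genes gave 23 higher and 1 lower of 29 tested, with a median of 3.05, or 19 higher and 3 lower without replicates 61 and 63. The 23 had a median of 2.13 CPM in FR and 39.1 CPM in one-year FFPE. Cyp3a2, a hepatic cytochrome P450 whose row holds values that are not whole, read 0, 6.57, 0, 0 and 4.10 CPM in FR and 203 to 829.1 (median 382) in one-year FFPE (log2 change 7.63 ± 0.58, adjusted p = 1.4e-09, and 8.73 without FR replicate 50). Fgb, the beta chain of fibrinogen, held 1 count in FR and 8.93 to 35.98 (median 21.6) CPM in one-year FFPE, a ratio of pooled counts of 151 (95% exact counting interval 26.5 to 5996). Apoc3, an apolipoprotein of the liver and gut, held no count in any FR library and 7.66 to 49.7 (median 19.3) CPM in one-year FFPE. Against the limit of 3 counts over the FR group, it was at least 49-fold higher. Alb, the main hepatic secretory product, varied in every group, with 24.6, 29.6, 0, 76.04 and 6.15 CPM in FR and 0 to 959 (median 48.7) in one-year FFPE (adjusted p = 0.091), and replicate 63 held the value of 959. Fgg, the gamma chain of fibrinogen, which lung epithelium can make, was well expressed and fell from 3501, 2629, 2895, 2895 and 3501 CPM to 701 to 1578 (median 849) (log2 change -1.71 ± 0.20, adjusted p = 2.5e-07, total count -0.95).

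All 9 cardiac muscle genes tested were higher, with a median of 5.46, or 5.37 when Ckm, at 0 in every FR library, was set at its lower limit. Their median level in FR was 0.524 CPM, so that most could pass the filter on low counts only through the FFPE libraries and the direction was largely fixed by it. Myl3, a ventricular myosin light chain, held 1 count over the FR libraries and 17.9 to 51.6 (median 26.4) CPM in one-year FFPE, a ratio of pooled counts of 217 (95% exact counting interval 38.5 to 8629). Ckmt2, the mitochondrial creatine kinase of striated muscle, held 2 counts in FR and 17.8 to 68.4 (median 40.7) CPM in one-year FFPE, a ratio of 186 (95% exact counting interval 50.98 to 1541). Myh6, the atrial myosin heavy chain, held 1 count in FR and 3.36 to 25.6 (median 5.04) CPM in one-year FFPE, with the highest value in replicate 65 and a ratio of 87.6 (95% exact counting interval 15.2 to 3510). The summed level of the list was 6.16 to 43.0 CPM in FR and 130 to 919 CPM in one-year FFPE, with replicate 65 highest. Without replicate 65, 7 of the genes could be tested and 6 were higher. In FR > FFPE the sum was 147 to 231 CPM in 4 libraries and 5309 and 5282 CPM in replicates 57 and 59, and without this pair 7 of 7 tested cardiac genes were higher in one-year FFPE than in FR. Whether heart tissue had a part in the cardiac levels was not tested.

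**Figure D4:**
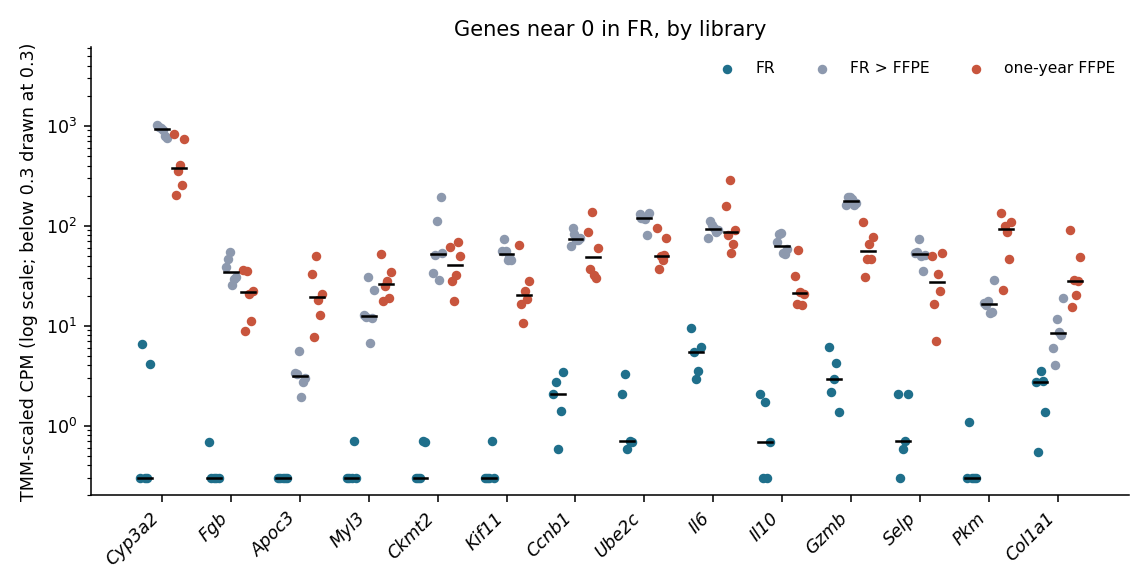
TMM-scaled CPM (y axis, log scale, values below 0.3 drawn at 0.3) of 14 genes near 0 in FR, 1 point for each library and a black bar for the group median. One-year FFPE libraries lie above every FR library for all 14, and the one-year FFPE medians of Pkm, Apoc3 and Col1a1 lie above those of FR > FFPE while those of Gzmb and Il10 lie below.

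Housekeeping genes split by level too. Respiratory chain genes gave 4 higher and 3 lower of 11 tested (6 and 1 with total count). Atp5c1, a subunit of ATP synthase, read 2107, 1770, 1915, 2003 and 1966 CPM in FR and 241 to 547 (median 387) in one-year FFPE (log2 change -2.29 ± 0.27, adjusted p = 2.5e-07, total count -1.57), whereas Cycs, cytochrome c, rose from 104, 117, 117, 117 and 120.2 CPM to 288 to 547 (median 344) (log2 change 1.71 ± 0.17, adjusted p = 2.2e-08). Ribosomal protein genes gave 2 higher and 4 lower of 9 tested, with a median of -0.68 (2 higher and none lower with total count, median 0.05). Rps6, a protein of the small subunit, went from 15596, 11079, 14908, 15806 and 15515 CPM to 4170 to 5573 (median 4941) (log2 change -1.57 ± 0.21, adjusted p = 9.0e-07, total count -0.82). The 2 that were higher, Rpl3l and Rps27l, are ribosomal-protein-like genes and had at most 0.766 CPM on average in FR. Of 6 translation initiation genes 3 were lower and none higher, with a median of -0.70 (1 lower with total count, median 0.05), and 2 of those 3, Eif2s1 and Eif4e, lay within 0.06 of the fold threshold. Eif2ak2, the kinase PKR that phosphorylates initiation factor eIF2 rather than a factor itself, fell most, from 281, 241, 261, 243 and 323 CPM to 17.2 to 49.8 (median 40.1) (log2 change -2.83 ± 0.24, adjusted p = 4.1e-09, total count -2.11).

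**Figure D5:**
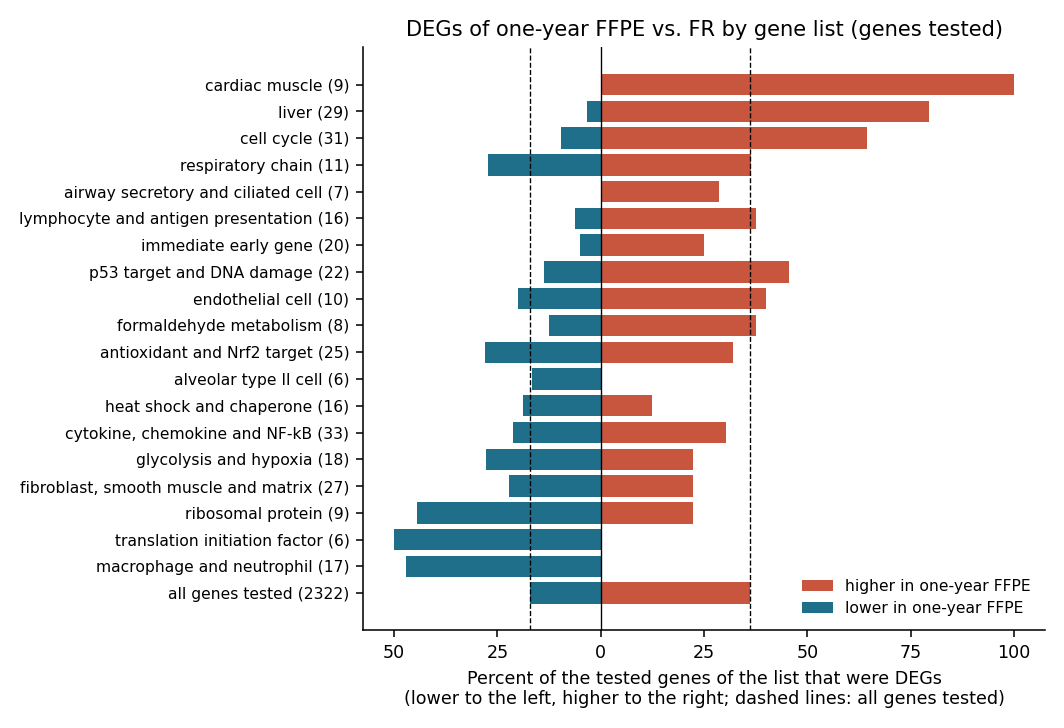
Percent of the tested genes of each list (number tested in brackets) that were higher (red, right) or lower (blue, left) in one-year FFPE vs. FR, with dashed lines at the 36.2% and 17.1% of all 2322 genes. Cardiac muscle, liver and cell cycle lists lie furthest right, and the macrophage and neutrophil list has 8 of 17 genes lower and none higher.

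The largest changes included many rows with values that were not whole. Rows with values that were not whole numbers, to within 0.01 in the 11 libraries, made up 9.26% of the genes tested, 8 of the 12 largest rises and 5 of the 12 largest falls among DEGs with at least 50 CPM in a group. How the authors' counting assigned reads of near-identical genes is not given in the sources used here, so the level of a single such row is uncertain. LOC100364500 (chromosome 20, 2704148 to 2707121, as listed in the deposited table, rn6 being the only rat build in the submitters' processing notes), was at 0 in every FR library and at 643 to 2110 (median 1312) CPM in one-year FFPE, at least 3564-fold higher against 3 counts over the FR group. RT1-CE10 (chromosome 20, 154074 to 157862) was likewise at 0 in FR and at 92.4 to 306 (median 209) CPM in one-year FFPE, at least 541-fold higher. LOC100360856 (chromosome 9, 8349033 to 8442299) read 1.37, 0, 0, 0 and 1.37 CPM in FR and 1237 to 4008 (median 1730) in one-year FFPE (log2 change 11.79 ± 0.51, and 12.39 without FR replicate 49). Amy1a, the salivary amylase (chromosome 2, 216428709 to 216443519), was at 0 in FR and at 34.5 to 78.2 (median 49.9) CPM in one-year FFPE, at least 125-fold higher. Mup4, a major urinary protein (chromosome 5, 77313357 to 77433855), read 0, 1.64, 0, 0.704 and 0 CPM in FR and 49.8 to 359 (median 135) in one-year FFPE (log2 change 8.03 ± 0.65, 9.23 without FR replicate 50 and 7.37 without one-year replicates 61 and 63). Cyp2c6v1, a hepatic cytochrome P450 with whole counts (chromosome 1, 147713892 to 147888008), held 3 counts in FR and 66.4 to 225 (median 139.99) CPM in one-year FFPE, a ratio of pooled counts of 397 (95% exact counting interval 135 to 1929). Ugt2b37, a glucuronosyltransferase (chromosome 14, 22375955 to 22534721), held 2 counts in FR and 58.7 to 227 (median 153) CPM in one-year FFPE, a ratio of 518 (95% exact counting interval 143 to 4288).

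Falls were led by LOC103694855 and LOC103694857, rows beside the haemoglobin gene. The listed interval of LOC103694857 lies within that of LOC103694855. Both rows hold values that are not whole, so the level of each is uncertain. LOC103694855 (chromosome 1, 168945449 to 168965567) read 1420, 1253, 1267, 1334 and 1227 CPM in FR and 0 to 7.82 (median 2.24) in one-year FFPE, a log2 change of -8.68 ± 0.41 (adjusted p = 1.5e-12, total count -7.98). LOC103694857 (chromosome 1, 168957460 to 168958837) read 555, 483, 491, 515 and 469 CPM in FR and 0 to 2.55 (median 0.839) in one-year FFPE, a log2 change of -8.92 ± 0.31 (adjusted p = 1.0e-14, total count -8.23). Hbb itself lies at chromosome 1, 168971274 to 168972726 in the table and fell by 1.31 on the log2 scale. Elsewhere Ppp2ca, the catalytic subunit of protein phosphatase PP2A, whose values are not whole, went from 2854, 2068, 2554, 2577 and 2714 CPM to 224 to 526 (median 382) (log2 change -2.70 ± 0.23, adjusted p = 4.1e-09, total count -1.98). Btg3, an antiproliferative factor, went from 1914, 1682, 1795, 1946 and 1882 CPM to 229.9 to 461.9 (median 321) (log2 change -2.43 ± 0.18, adjusted p = 8.8e-10, total count -1.70). Me1, the cytosolic malic enzyme that supplies NADPH, went from 216, 97.96, 196, 225 and 242 CPM to 23.4 to 45.1 (median 29.4) (log2 change -2.61 ± 0.26, adjusted p = 2.3e-08, total count -1.88). In these 3 genes every one-year library was below every FR library.

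Detection itself was one-sided. There were 42 genes with at least 5 counts in all 6 one-year FFPE libraries and 0 in all 5 FR libraries, and no gene with the reverse pattern. After thinning to 226751 counts the numbers were 30 and 0. Besides LOC100364500, RT1-CE10 and Amy1a, the 42 include genes that are used in other organs. The following were chosen after their values were seen. Grin2a, a subunit of the neuronal glutamate receptor, had 11.5 to 60.4 CPM in one-year FFPE, at least 86-fold over 3 counts in the FR group. Slc6a3, the dopamine transporter, had 8.93 to 68.8 CPM, at least 96.7-fold. Fshb, the pituitary follicle-stimulating hormone subunit, had 11.5 to 42.2 CPM, at least 61.3-fold. Opn4, the melanopsin of the retina, had 11.5 to 39.6 CPM, at least 58.8-fold. Gdf9, an oocyte growth factor, had 11.5 to 67.3 CPM, at least 95.9-fold. In FR > FFPE libraries these 5 genes were also above 0, at medians of 47.7, 45.3, 54.8, 5.49 and 61.2 CPM.

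The direct contrast of one-year FFPE vs. FR > FFPE, from the same fit, had fewer DEGs than either contrast with FR. It gave 297 DEGs (12.8% of the genes tested), 144 higher (6.2%) and 153 lower (6.59%) in one-year FFPE, at a median of -0.05. FR > FFPE vs. FR gave 37.8% higher and 18.3% lower, but it shares the FR libraries with the one-year contrast, and its values are given beside those above only as levels. Replicates 57 and 59 of FR > FFPE stood apart in cardiac and lymphocyte list sums, and without them the direct contrast had 274 DEGs, 150 higher and 124 lower. Of the cardiac genes 4 of 9 were lower in one-year FFPE with that pair, and 3 of 7 were higher without it.

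In the 7 lists of lung and immune cells 13 of 84 entries (15.5%, against 12.8% of all genes) were DEGs in the direct contrast. None of the 7 alveolar or 10 endothelial genes passed, 2 of 7 airway and 2 of 27 matrix genes were higher, 4 macrophage and neutrophil genes were higher and 1 lower of 17, and 4 lymphocyte and antigen presentation genes were lower of 16. Without FR > FFPE replicates 57 and 59 the last count was 2, 1 airway gene was higher, and 3 matrix genes were higher and 1 lower. Macrophage and neutrophil genes then gave 3 higher and 1 lower of 16 tested. The summed level of the lymphocyte list was 39226 and 57417 CPM in those replicates against 12468 to 22185 in the other 4 FR > FFPE libraries and 14188 to 16254 in one-year FFPE. Lamp3 had 409 to 2933 (median 1708) CPM in FR > FFPE and differed in one-year FFPE by 0.75 ± 0.30 on the log2 scale (adjusted p = 0.066), Cav1 had 723 to 2393 (median 1321) CPM (difference 0.17 ± 0.26, adjusted p = 0.64) and Lyz2 had 88901 to 148290 (median 122502) CPM (difference 0.13 ± 0.21, adjusted p = 0.65). Hbb was higher in one-year FFPE than in FR > FFPE, where it read 8495 to 24277 (median 11313) CPM, by 0.90 ± 0.25 (adjusted p = 0.0093), which is under 2-fold, and by 1.08 without replicates 57 and 59. Acta2 had 37.4 to 191 (median 133) CPM in FR > FFPE and was higher in one-year FFPE by 1.48 ± 0.39 (adjusted p = 0.0077), or 1.79 without replicates 57 and 59. Cyp2f4 was higher than its 59.3 to 85.6 (median 68.2) CPM in FR > FFPE by 1.33 ± 0.42 (adjusted p = 0.022).

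Some genes near 0 in FR were DEGs between the 2 kinds of FFPE tissue. Col1a1 had 4.06 to 18.8 (median 8.38) CPM in FR > FFPE and was higher in one-year FFPE by 2.01 ± 0.43 (adjusted p = 0.0018). Pkm had 13.4 to 28.7 (median 16.5) CPM in FR > FFPE and was higher by 2.22 ± 0.36 (adjusted p = 2.1e-04). Apoc3 had 1.91 to 5.52 (median 3.11) CPM and was higher by 2.63 ± 0.44 (adjusted p = 4.5e-04). Cxcl1 had 0.543 to 8.69 (median 3.22) CPM and was higher by 2.07 ± 0.50 (adjusted p = 0.0038), or 1.55 without replicates 57 and 59. In the other direction Gzmb had 159.7 to 195 (median 177) CPM in FR > FFPE, above every one-year library, and was lower in one-year FFPE (log2 difference -1.50 ± 0.24, adjusted p = 2.1e-04). Fancd2 had 90.01 to 149 (median 128) CPM and was lower (difference -1.61 ± 0.20, adjusted p = 2.5e-05), as were Il10 at 52.2 to 85.04 (median 63.3) CPM (difference -1.43 ± 0.32, adjusted p = 0.0024) and Ms4a1 at 44.98 to 142 (median 52.2) CPM (difference -1.81 ± 0.32, adjusted p = 4.1e-04). All of these 4 remained DEGs without replicates 57 and 59. LOC100364500 and RT1-CE10 were lower in one-year FFPE than in FR > FFPE as well, with log2 differences of -2.06 and -2.01 from 3504 to 7489 (median 6196) and 508 to 1086 (median 898) CPM.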

How the data were processed

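Lung RNA of male WKY rats was measured by TempO-Seq with the rat S1500+ panel on a NextSeq 550. The authors deposited a table of estimated counts per gene (94.1% of values whole to within 0.01) and a table of log2 CPM made from it. The submitters' processing notes list CASAVA 1.8.2, Partek, STAR 2.5.3a and the rn6 build, but which of them made the lung table is not given in the sources used here. Estimated counts were rounded to whole numbers. Genes were kept by edgeR's filterByExpr (2322 tested), scaled by TMM and fitted with edgeR 4.0.16 in R 4.3.3, by the quasi-likelihood test over 17 libraries in 3 groups, without covariates. Fold changes are log2 with a standard error derived from the F statistic, and p-values were Benjamini-Hochberg adjusted over all genes tested. Library measures were compared by exact permutation tests in scipy 1.17.1. Alternatives used limma 3.58.1 and DESeq2 1.42.0. Intervals and limits for counts of 0 to 3 cover counting error only, with 3 counts over the group standing for 0. The scripts were tested on simulated data with equal numbers of genes raised and lowered. That test does not cover scaling under a split as uneven as the one found here.

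Genes named were the 12 largest rises and 12 largest falls among DEGs with at least 50 CPM in a group and no overlap between groups, the 3 largest rises and falls in each of 21 gene lists, the 8 most abundant genes of each group and a set of tissue markers. Not all of them are described. The members, lists and rules were chosen with earlier results of these data known. Tables of other tissues and assays were not used here.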

Additional observations from a re-analysis of the deposited data

Results flagged for a closer look

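In 25 of 254 sets of values from 1 group, 1 library lay far from the others of its group by Dixon's criterion, which chance alone flags in about 1 of 20 sets. Among the 5 FR libraries 10 of the 15 cases were genes near 0, where the library apart was the only one that held a count: LOC100910057 (0.580 CPM, replicate 51), LOC100912485, Hsd3b2 and Fgb (0.684 CPM each, replicate 49), Ugt2b37 and Pkm (1.09 CPM each, replicate 50), Kif11 and Myl3 (0.704 CPM each, replicate 52) Rpl3l (0.683 CPM, replicate 53) and Myh6 (0.580 CPM, replicate 51). FR replicate 50 was highest for Ptprb (71.7 CPM) and lowest for Mdm2 (670.9 CPM) and Rps6 (11079 CPM). FR replicate 53 was lowest for Hmmr (6.83 CPM), and FR replicate 49 was lowest for Cycs (104.0 CPM).

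Of the 10 cases among the one-year FFPE libraries, 7 were in the shallow replicates 61 and 63. Replicate 63, with the lowest total count, had the fewest genes with at least 5 counts (2062) and the highest levels of Fgg (1578 CPM), Alb (959 CPM) and Il10 (56.9 CPM). Replicate 61 was highest for Mthfd2 (71.96 CPM) and Kif11 (64.1 CPM) and lowest for Ahnak (6097 CPM). Replicate 62 was highest for Lyz2 (184371 CPM). Replicate 65 was highest for Myh6 (25.6 CPM) and lowest for Xrcc1 (20.0 CPM).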

How the results depend on the processing

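The count of lower DEGs depended most on the processing. Against 397 with TMM it was 99 with total count as library size, 100 when limma was run on the deposited log2 CPM values, and 732 with the adjusted p alone. A minimum mean of 50 CPM left 681 DEGs (431 higher and 250 lower), and thinning to the smallest library left 801 (236 lower), with fewer genes tested in both. DESeq2 gave 1229 DEGs, its size factors in edgeR 1233, limma on the counts 1218, no filter 1272, and the fit without replicates 61 and 63 gave 1160. Leaving out single replicates gave 1175 to 1271. Under total count Lyz2 (0.34), RT1-CE4 (0.41) and RT1-CE7 (0.42) changed sign, and so did Alb without replicates 61 and 63 (-0.087). The median log2 fold change of all genes was 0.75 higher with total count than with TMM. Replicate 63 held the Alb value of 959 CPM, and why it did was not tested. The percent of counts in the 10 most abundant genes differed by -3.19 to -1.97 points when single replicates were left out, and it passed the threshold without one-year replicate 62 (-3.19). No paired analysis was possible because the groups compared share no replicate numbers. The alternative without replicates 61 and 63 and those without FR > FFPE replicates were chosen after seeing the data. The shallowest one-year library limits what can be said of genes near 0.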
